A study of Mus musculus with 6 samples.

Results

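Autophagy delivers cytoplasmic material to the lysosome inside a double membrane, the autophagosome, and its core machinery is a set of conserved proteins that act in steps. A kinase complex around ULK1 starts the process, a class III phosphatidylinositol 3-kinase (PI3K) marks the membrane with phosphatidylinositol 3-phosphate, and lipid-transfer proteins and the scramblase ATG9A let the membrane grow. Conjugation enzymes related to those of the ubiquitin pathway then attach ATG8-family proteins (LC3 and GABARAP) to the membrane, where receptors bind them to bring in cargo; in macrophages the pathway removes intracellular microbes and limits inflammasome activity.

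The list held 34 genes of this machinery, chosen by name, out of the 21047 genes in the table, and all 34 were in the table and entered the test. They were divided into the ULK complex (5 genes), the PI3K complex (6), lipid transfer with ATG9A (5), conjugation (10), the ATG8 genes (5), and a small group of receptors and a tether (3). RNA was sequenced from 3 A20KO and 3 WT samples of iBMDM, an immortalised mouse line of bone-marrow-derived macrophages. The A20KO line was made to lack A20, the ubiquitin-editing inhibitor of NF-kB signalling encoded by Tnfaip3; the labels gave no treatment for either genotype, and they did not say whether A20KO was a single clone or how the gene was disrupted. The series asks what A20 does in macrophages.

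Values are normalized read counts, meaning reads per gene divided by a size factor for the library, and levels are compared between genes only after division by gene length. Fold changes, A20KO over WT, were fitted by limma after taking log2(normalized read count + 1) and are given with a standard error (SE), and a gene was called changed at a Benjamini-Hochberg adjusted p under 0.05 over all 17376 genes tested. The labels do not state that the 3 samples of either genotype were grown separately. The p-values therefore reflect the spread among these samples alone, and that spread may be technical. In bulk RNA, fewer cells of a type and less RNA per cell cannot be told apart.

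Libraries held 13308840 to 14433653 reads in A20KO and 13722924 to 15130697 in WT. Tnfaip3 had 194, 196 and 189 normalized reads in A20KO and 389, 382 and 437 in WT (log2 fold change -1.06, SE 0.101, limma adjusted p = 7.1e-14), so the knockout libraries held less Tnfaip3 RNA but were not free of it. The counts do not show whether those reads came from an intact gene. All 8 macrophage markers examined were in the table, and Adgre1, which encodes the F4/80 antigen, had 2580 to 2610 normalized reads in A20KO and 2560 to 2600 in WT and was the one that did not pass. Csf1r, the receptor for the growth factor CSF1, was higher (5260 to 5410 in A20KO, 2380 to 2630 in WT), as was the mannose receptor gene Mrc1 (115 to 141 in A20KO, 0.971 to 9.44 in WT). The lysozyme gene Lyz2 was lower (6210 to 6370 in A20KO, 9320 to 9440 in WT), as were Cd68, Itgam, Spi1 and Ptprc. The macrophage markers summed to about 25300 in each A20KO library and to 27800 to 28500 in the WT libraries, with 2 markers higher and 5 lower in A20KO. Markers of fibroblasts, T cells, B cells, neutrophils, dendritic cells and mast cells summed to at most 84.9 in A20KO and at most 138 in WT. The defining genes Cd3e, Col1a2 and Ly6g were looked for by name and were not in the table. The sums of these cell types therefore rest on 1 to 3 markers each. S100a8, a neutrophil marker that macrophages can also express, was lower in A20KO (35.2 to 53.6, against 101 to 132 in WT), and Zbtb46 was higher (69.3 to 79.0, against 30.4 to 40.0 in WT). The part of these differences in the autophagy results was not tested.

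Members of the core machinery shifted in both directions, by less than 2-fold each. Of the 34 genes 7 were higher in A20KO (Atg101, Atg14, Gabarapl1, Pik3c3, Ulk1, Tecpr1 and Atg2a) and 6 were lower (Atg9a, Atg7, Atg13, Ambra1, Gabarap and Nbr1). The remaining 21 did not pass. The 13 called members stand beside a background of 39.8% of all genes tested, 20.3% higher and 19.6% lower. The share of called members was therefore close to that of the transcriptome. The same background applies to the counts by step below. The median log2 fold change was 0.02 over the members and 0.01 over all genes, and the median absolute change was 0.17 over the members and 0.32 over all genes. None of the 34 members passed with a change of at least 2-fold, while 9.27% of all genes did. The member changes ran from -0.51 (Atg9a) to 0.64 (Atg101). Because 30 of the members averaged at least 100 normalized reads, they were also set beside the 9383 genes at that level. Among those genes 58.2% were called and 5.34% were called with a change of at least 2-fold, against 13 and 0 of the 30 members. At that level the median absolute change was 0.16 over the 30 members and 0.21 over the 9383 genes, a smaller gap than over all genes. In 19 members (9 higher and 10 lower in A20KO) the 3 A20KO values lay wholly above or below the 3 WT values, which was the case for 46.9% of all genes tested and for 63.6% of genes with a mean of at least 100.

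**Figure D1:**
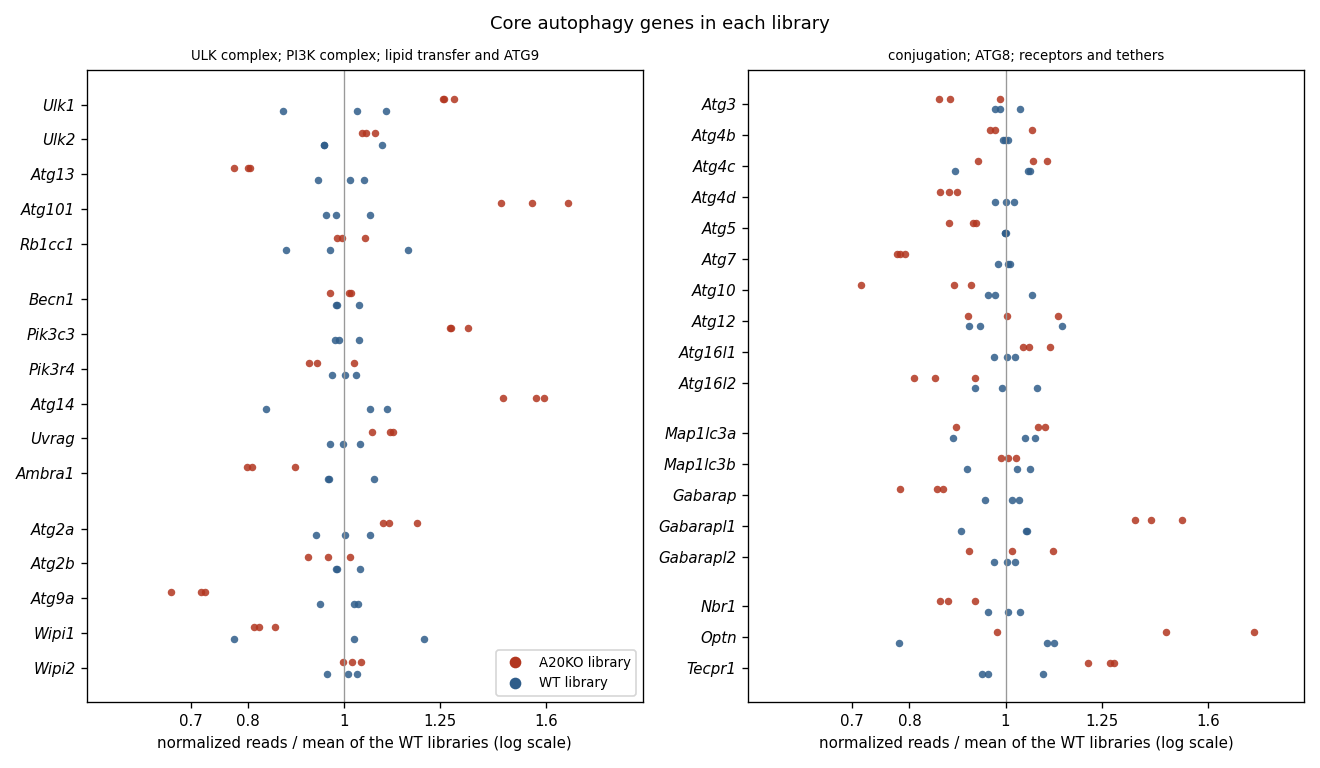
Each point is 1 library, plotted as normalized reads divided by the mean of the 3 WT libraries on a log axis, with A20KO in red above WT in blue for each gene, grouped by step. Atg101, Atg14 and Gabarapl1 lie farthest to the right in A20KO among genes whose genotypes do not overlap, and Atg9a farthest to the left.

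In the ULK complex, which receives nutrient signals and starts autophagosome formation, 2 of 5 genes were higher in A20KO and 1 was lower. Atg101, which encodes the partner that stabilises ATG13, had 543, 635 and 583 normalized reads in A20KO and 361, 369.8 and 401 in WT. Every A20KO library was above every WT library, and the log2 fold change was 0.64 (SE 0.0814, limma adjusted p = 1.1e-09), the largest rise of the 34 genes. Atg101 lies at chr15:101284272-101290945 (mm10) on the plus strand, and the genes of chromosome 15 differed as a whole: of 662 genes tested there, 53.6% rose and 7.1% fell in A20KO, and their median change was 0.38 (log2). The part of this chromosome-wide difference in the Atg101 value was not tested. No other member lies on chromosome 15.

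Atg13, the regulatory subunit that the ULK kinases and mTORC1 phosphorylate, moved the other way. It had 1622.5, 1676.5 and 1685 normalized reads in A20KO and 2126, 1973 and 2197 in WT, with no overlap between genotypes (log2 fold change -0.34, SE 0.0484, limma adjusted p = 2.8e-08). The kinase gene Ulk1 had 329, 328 and 336 in A20KO and 226, 269 and 287 in WT (log2 fold change 0.35, SE 0.101, limma adjusted p = 0.0036). Its call rested on WT replicate 1, the lowest WT value: without that library the log2 fold change was 0.25, with an adjusted p of 0.057. Fitting limma with no variance trend gave an adjusted p of 0.064.

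The second ULK kinase and the scaffold did not pass. Ulk2 had 236, 229 and 231 normalized reads in A20KO and 239.7, 209.7 and 209.8 in WT (log2 fold change 0.08, 95% interval -0.14 to 0.30). Rb1cc1, which encodes the scaffold FIP200, had 486, 480.2 and 513 in A20KO and 567, 473 and 427 in WT, and its WT libraries spanned the whole A20KO range (0.02, 95% interval -0.15 to 0.19). The ratio of Ulk1 to Ulk2 reads within a library was 1.39, 1.43 and 1.45 in A20KO and 0.943, 1.28 and 1.37 in WT. These ratios did not overlap, and without WT replicate 1 their log2 difference was 0.11, against 0.27 with all libraries. With 3 libraries against 3, the exact two-sided permutation test cannot give a p below 0.1, which it gave here (0.18 adjusted over the 9 gene pairs compared). Per kilobase of the deposited gene length the ULK kinase genes together had 90.2, 88.8 and 90.5 normalized reads in A20KO and 75.0, 76.5 and 79.4 in WT.

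The PI3K complex, which makes phosphatidylinositol 3-phosphate at the site of autophagosome formation, contained 2 higher genes and 1 lower gene of 6. The genes that rose were the catalytic subunit and the subunit that directs the complex to autophagy. Pik3c3, the lipid kinase VPS34, had 906, 945 and 908 normalized reads in A20KO and 699.8, 733 and 693 in WT (log2 fold change 0.38, SE 0.0633, limma adjusted p = 1.1e-06). Atg14, the subunit particular to the autophagy form of the complex, had 187, 170.2 and 184 in A20KO and 98.0, 125 and 130.0 in WT (log2 fold change 0.62, SE 0.140, limma adjusted p = 1.7e-04). For both genes all A20KO libraries exceeded all WT libraries.

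Ambra1, a Beclin 1 partner that also serves cullin ubiquitin ligases, was lower, with 784, 867 and 774 normalized reads in A20KO and 938, 1042 and 935.5 in WT (log2 fold change -0.27, SE 0.0633, limma adjusted p = 4.1e-04). Its call did not hold without the variance trend (adjusted p = 0.067). Becn1, the Beclin 1 scaffold of the complex, had 918, 922 and 879 in A20KO and 891, 941 and 892.5 in WT, so the genotypes overlapped (log2 fold change -0.0023, 95% interval -0.12 to 0.12). Of its annotated exon bases 43.93% overlap Cntd1 on the opposite strand, a gene that averaged only 1.35 normalized reads in A20KO and 2.92 in WT. Pik3r4, the regulatory subunit VPS15, had 608, 597 and 663 normalized reads in A20KO and 666, 629 and 648 in WT, which overlap (log2 fold change -0.06, 95% interval -0.20 to 0.08). Uvrag, which takes the place of ATG14 in the endosomal form of the complex, had 1134, 1088 and 1142 normalized reads in A20KO and 1017, 986.5 and 1057 in WT. The Uvrag libraries did not overlap, but the difference missed the threshold (log2 fold change 0.14, SE 0.0570, limma adjusted p = 0.051) and passed it under 6 of 15 alternative settings. Of the Uvrag exon bases 17.59% overlap Gm45187 on the opposite strand, which averaged 2.0 normalized reads in A20KO and 1.02 in WT.

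The start-site regions of the members were examined for motifs. In the RefSeq windows of 300 bases (250 before and 50 after the start, GRCm38.p6) 28 of the 34 members had an entry, with 30 windows in all. The E-box CACGTG, which reads the same on both strands and is bound by TFEB, TFE3 and MITF, the transcription factors of lysosome and autophagy genes, occurred in windows of 4 members (Atg14, Atg7, Atg3 and Atg5) and in 7.15% of all 32851 windows. The longer TCACGTGA, which contains the E-box and is the core of the lysosomal CLEAR element, also reads the same on both strands and occurred in the window of Atg3, against 0.974% of all windows. The forkhead motif GTAAACA was in no member window, against 3.65% of all windows, and the NF-kB consensus was in the window of Atg16l2, against 4.51% of all windows; both strands were searched for every motif. Of the 30 windows 29 began within 250 bases of the start of a principal GENCODE transcript. The exception was that of Atg7, whose RefSeq start lies 27967 bases downstream of the nearest principal start, inside the gene; its E-box is therefore not at the main Atg7 start and is not shown. The Atg14 window (chr14:47568415-47568684, minus strand) is printed from 250 bases before to 20 bases after the start because Atg14 was the gene that changed among those with an E-box near a principal start. A second principal Atg14 transcript starts upstream of this window, at base 47570649. Shorter stretches show the E-boxes of Atg3 and Atg5, which did not pass; capitals mark the E-box.
Atg14: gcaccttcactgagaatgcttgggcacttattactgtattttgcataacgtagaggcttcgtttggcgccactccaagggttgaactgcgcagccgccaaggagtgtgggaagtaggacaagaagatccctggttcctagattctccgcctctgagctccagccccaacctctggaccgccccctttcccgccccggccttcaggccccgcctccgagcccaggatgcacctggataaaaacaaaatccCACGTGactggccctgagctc
Atg3, first E-box: cttttgtCACGTGtcctggg
Atg3, second E-box: gtcgagtCACGTGaggcctt
Atg5: cgcttgcCACGTGgtcttgg
With the first transcribed base as +1, the E-box began at position -1 in Atg14, -94 and -71 in Atg3 and -14 in Atg5. A match describes these letters only and does not show binding.

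Among the lipid-transfer and membrane genes, 1 of 5 was higher and 1 was lower. Atg9a, the multispanning scramblase whose vesicles seed the autophagosome, showed the largest fall of the 34 genes. It had 361, 390.3 and 387 normalized reads in A20KO and 557, 552 and 509.7 in WT (log2 fold change -0.51, SE 0.0813, limma adjusted p = 3.6e-07). The libraries did not overlap. Of the Atg9a exon bases 31.79% also belong to Gm29253, a transcript annotated on the same strand. Gm29253 was not among the genes in the table, and how reads in the shared bases were counted is not known. Atg2a, which encodes a lipid-transfer bridge from the endoplasmic reticulum, had 997, 1079.8 and 1012 in A20KO and 911, 853 and 968 in WT (log2 fold change 0.18, SE 0.0607, limma adjusted p = 0.014). It no longer passed when A20KO replicate 2 was left out (0.14, adjusted p = 0.11), when WT replicate 2 was left out (0.13, adjusted p = 0.13) or with no variance trend (adjusted p = 0.14).

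Atg2b, the paralogue of Atg2a, had 1688, 1768 and 1859.5 normalized reads in A20KO and 1803, 1801 and 1902.5 in WT (log2 fold change -0.05, 95% interval -0.15 to 0.05). Per kilobase of the deposited gene length, Atg2a made up 50.8%, 51.6% and 48.8% of the ATG2 pair in A20KO and 46.9%, 45.3% and 47.1% in WT, so its share was higher in every A20KO library (exact permutation p = 0.1, the smallest possible; 0.18 adjusted over 9 pairs). Wipi1 and Wipi2 encode readers of phosphatidylinositol 3-phosphate. Wipi2 had 1362, 1334 and 1392 normalized reads in A20KO and 1350.1, 1285 and 1379 in WT, which overlap (log2 fold change 0.03, 95% interval -0.08 to 0.13). Wipi1 was low, with 25.4, 24.5 and 24.2 in A20KO and 35.9, 30.5 and 23.1 in WT, and the 95% interval of its log2 fold change ran from -0.84 to 0.36. Wipi1 averaged 4.15% of the WIPI pair per kilobase of deposited length in A20KO and 5.07% in WT, or 1.70% in A20KO and 2.09% in WT with principal transcript lengths.

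**Figure D2:**
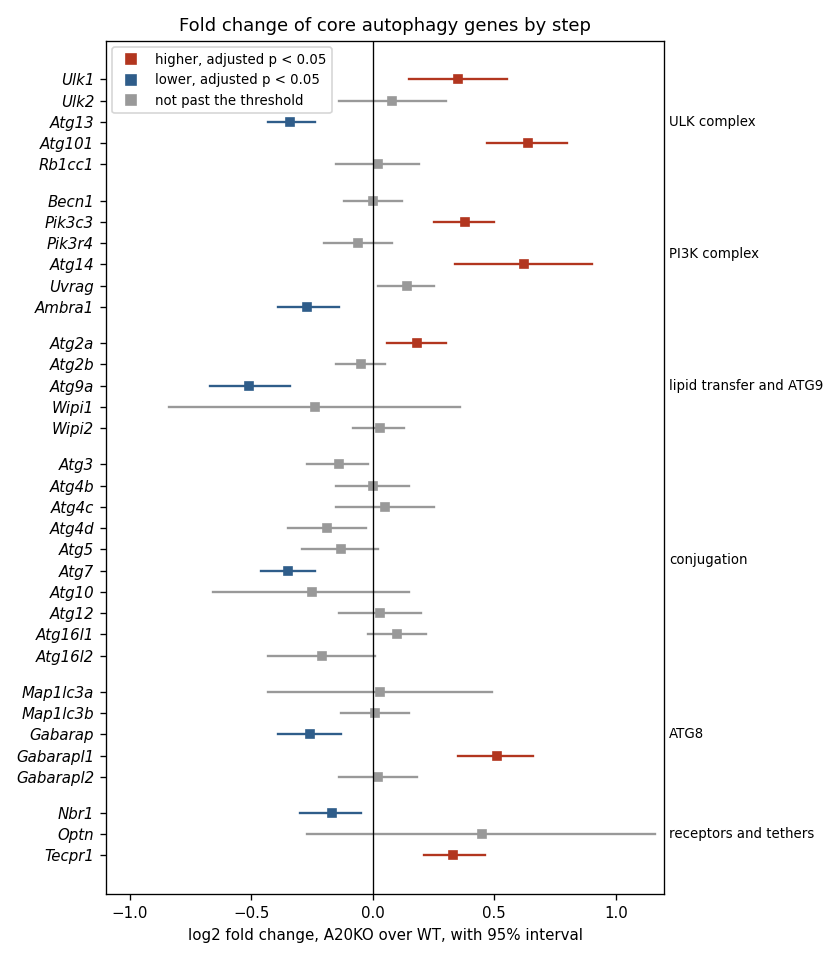
Squares are log2 fold changes (A20KO over WT) and lines their 95% intervals for the 34 genes by step, in red for higher, blue for lower and grey for genes that did not pass. Every step outside conjugation holds both red and blue squares, and conjugation holds the single blue square of Atg7.

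In the conjugation step, 1 of 10 genes was called. Atg7, the E1-like enzyme that activates both ATG12 and the ATG8 proteins, was the called gene. It had 929.8, 913.5 and 920.3 normalized reads in A20KO and 1188, 1183 and 1154 in WT, with replicates close together and no overlap between genotypes (log2 fold change -0.35, SE 0.0570, limma adjusted p = 4.9e-07). It kept its call under all 15 alternative settings.

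The E2-like enzymes did not pass. Atg3, which transfers ATG8 proteins to lipid, had 821.5, 922 and 802 normalized reads in A20KO and 968, 913 and 924 in WT (log2 fold change -0.14, limma adjusted p = 0.065), and passed under 2 of 15 alternatives. A20KO replicate 2 lay inside the WT range. Atg10, the E2-like enzyme for ATG12, was low, with 64.4, 49.9 and 62.0 in A20KO and 67.0, 74.3 and 68.2 in WT (log2 fold change -0.25, 95% interval -0.66 to 0.15). All A20KO values of Atg10 were below the WT values, but the difference did not pass.

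The E3-like complex of ATG12, ATG5 and ATG16L1 sets where ATG8 proteins are attached. Atg5 had 469, 441 and 466.5 normalized reads in A20KO and 503, 502 and 503 in WT (log2 fold change -0.13, 95% interval -0.29 to 0.02). Atg12 had 443, 546 and 484 in A20KO and 550.3, 443 and 455 in WT, an overlap that covered most of both ranges (0.03, 95% interval -0.14 to 0.20). Atg16l1 had 985, 925 and 938 in A20KO and 891, 908 and 864 in WT (0.10, 95% interval -0.02 to 0.22). Atg16l2, a homologue of Atg16l1, had 236, 215 and 205 in A20KO and 273, 236.4 and 252 in WT (-0.21, 95% interval -0.43 to 0.01). Neither ATG16L gene passed. The ratio of Atg16l1 to Atg16l2 reads was 4.17, 4.30 and 4.58 in A20KO and 3.27, 3.84 and 3.43 in WT (log2 difference 0.31, exact permutation p = 0.1, the smallest possible; 0.18 adjusted over 9 pairs).

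The ATG4 proteases trim new ATG8 proteins and release them from membranes. Atg4b had 553, 609 and 559 normalized reads in A20KO and 576.5, 570.0 and 573 in WT, overlapping entirely (95% interval of the log2 fold change -0.15 to 0.15). Atg4c had 334, 293 and 345 in A20KO and 331, 278 and 329 in WT (log2 fold change 0.05, 95% interval -0.15 to 0.25). Atg4d had 435, 419 and 427 in A20KO and 476, 488 and 497 in WT. Its libraries did not overlap, its log2 fold change of -0.19 (SE 0.0801) had a limma adjusted p of 0.052, and it passed under 4 of 15 alternatives. Of the Atg4d exon bases 19.34% overlap Kri1 on the opposite strand, which averaged 425 ± 51.1 normalized reads in A20KO and 442 ± 43.9 in WT (SD, n = 3 each).

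The ATG8 genes encode the ubiquitin-like proteins that are attached to the autophagosome membrane, in an LC3 branch and a GABARAP branch, and members of the GABARAP branch changed in opposite directions. Gabarapl1 had 661.5, 711 and 638 normalized reads in A20KO and 425, 495 and 496 in WT (log2 fold change 0.51, SE 0.0762, limma adjusted p = 8.0e-08). Gabarap had 711, 722 and 653.5 in A20KO and 795, 847 and 861 in WT (log2 fold change -0.26, SE 0.0659, limma adjusted p = 7.4e-04). Neither gene's genotypes overlapped, so Gabarapl1 was higher and Gabarap lower in each A20KO library, and both calls held under all 15 alternatives. Gabarapl1 lies at chr6:129533160-129542346 (mm10) on the plus strand, where 28.32% of its exon bases overlap 1700101I11Rik on the opposite strand, a gene with no reads in A20KO and an average of 1.29 normalized reads in WT. Gabarap lies at chr11:69991143-69994951 (mm10) on the plus strand.

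The third GABARAP gene and the LC3 genes did not pass. Gabarapl2 had 541.5, 492 and 445 normalized reads in A20KO and 486, 473 and 496 in WT (log2 fold change 0.02, 95% interval -0.14 to 0.18); 15.2% of its 31-base words also occur in other annotated genes, so its count is less certain. Map1lc3b, which encodes LC3B, the usual marker of autophagosomes, had 660.5, 638 and 648 in A20KO and 663, 682.5 and 589 in WT. The A20KO libraries of Map1lc3b lay inside the WT range (0.01, 95% interval -0.13 to 0.15). Map1lc3a, which encodes LC3A, had 51.7, 50.9 and 42.0 in A20KO and 41.7, 50.5 and 49.3 in WT (0.03, 95% interval -0.43 to 0.49).

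Per kilobase, the GABARAP branch supplied most of the ATG8 transcripts. With the deposited gene length, Gabarap made up 35.9% ± 0.181 of the family in A20KO and 44.3% ± 0.266 in WT (SD, n = 3 each). Gabarapl1 made up 31.7% ± 1.13 in A20KO and 22.9% ± 1.10 in WT. These shares did not overlap between genotypes, whereas those of Gabarapl2 (20.2% in A20KO, 20.4% in WT), Map1lc3b (8.24% and 8.42%) and Map1lc3a (3.88% and 3.91%) did. The ATG8 sum per kilobase was 1079.0, 1084 and 984.6 in A20KO and 974.9, 1042 and 1047 in WT and overlapped between genotypes. The deposited length counts all exons of a gene, which for Map1lc3b is 7517 bases against 2532 bases in its principal GENCODE transcript. With principal transcript lengths, a choice made after seeing the data, the share of Map1lc3b was 17.4% in each genotype, that of Gabarap 34.9% in A20KO and 42.2% in WT, and that of Gabarapl1 24.9% in A20KO and 17.7% in WT. The level of LC3B relative to the GABARAP genes therefore depended on the length used, while the genotype differences in Gabarap and Gabarapl1 kept their direction. The ratio of Gabarapl1 to Gabarapl2 reads was 1.22, 1.45 and 1.43 in A20KO and 0.874, 1.05 and 1.0 in WT. Its log2 difference was 0.49 (exact permutation p = 0.1, the smallest possible, and 0.18 adjusted over 9 pairs). Among the remaining pairs, Atg4d to Atg4b also gave an exact permutation p of 0.1 (log2 difference -0.19, 0.18 adjusted). The exact permutation p was 0.4 for Wipi1 to Wipi2 and 0.9 for Map1lc3a to Map1lc3b. It was 0.6 for Atg4c to Atg4b and 0.2 for the receptor genes Nbr1 to Optn.

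**Figure D3:**
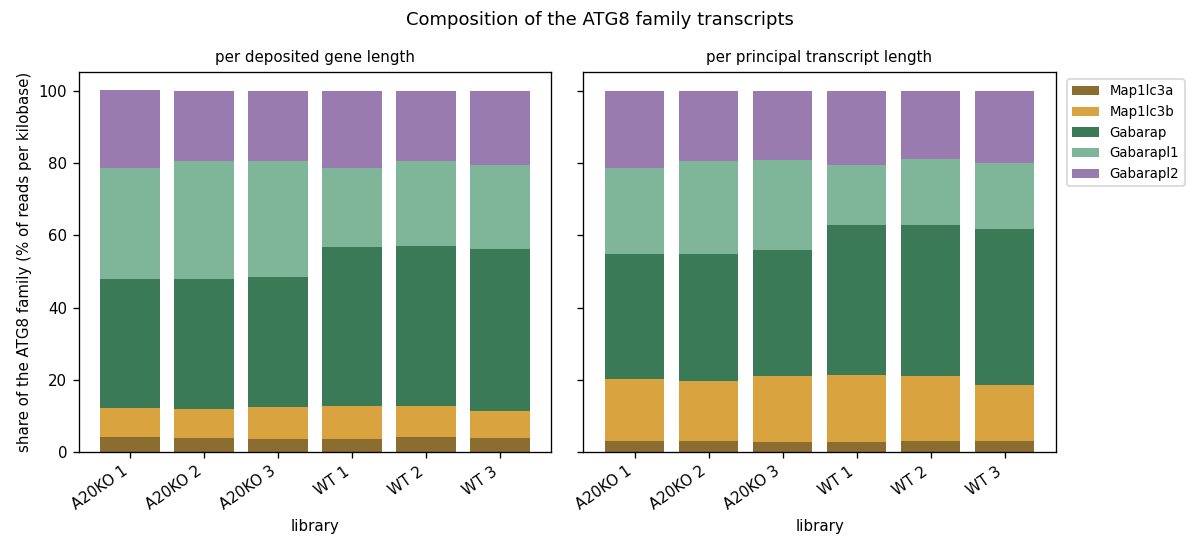
Stacked bars give each ATG8 gene's share of the family's reads per kilobase in each library, with the deposited gene length on the left and the principal transcript length on the right. The Gabarapl1 share is larger and the Gabarap share smaller in each A20KO library than in each WT library in both panels, while the mean Map1lc3b share is 8.24% in A20KO and 8.42% in WT on the left and 17.4% in both on the right.

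Of the receptors and the tether, 1 was higher and 1 was lower. Tecpr1, which encodes a lysosome-associated protein that binds ATG5, had 1045, 1035 and 984 normalized reads in A20KO and 780.3, 769 and 886 in WT (log2 fold change 0.33, SE 0.0625, limma adjusted p = 9.2e-06). Nbr1, a receptor for ubiquitinated cargo, had 800.0, 784 and 851 in A20KO and 945, 918 and 878 in WT (-0.17, SE 0.0623, limma adjusted p = 0.023). Neither gene's genotypes overlapped. The Nbr1 call held under 9 of 15 alternatives; it ended without A20KO replicate 1 (adjusted p = 0.066) or 2 (0.11), without WT replicate 1 (0.093) or 2 (0.064), with DESeq2 (0.060) and without the variance trend (0.11). Optn, which encodes the ubiquitin-binding receptor optineurin, had the fewest normalized reads of the 34 genes over the 6 libraries, with 28.3, 15.6 and 23.1 in A20KO and 17.5, 12.4 and 17.8 in WT. The genotypes overlapped, and the 95% interval of the log2 fold change ran from -0.27 to 1.16.

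The members differed widely in level. Per kilobase of the deposited gene length and averaged over the libraries of a genotype, Atg13 (380 in A20KO, 480 in WT), Gabarap (377 and 453), Atg101 (368 and 236) and Gabarapl1 (333 and 234) were the 4 highest of the 34 in A20KO. In WT, Atg3 (296, against 269 in A20KO) ranked after Atg13 and Gabarap and above Atg101 and Gabarapl1. That order depended on the length used: with principal transcript lengths Wipi2 (696 in A20KO, 683 in WT) was the highest of the 34, and Gabarapl1 (368 in A20KO) stood below Atg3 (412 in A20KO). At the low end, by the deposited length, stood Wipi1 (5.59 in A20KO, 6.76 in WT) and Optn (5.96 and 4.24). In the ULK complex, Ulk1 (51.0 in A20KO, 40.2 in WT), Ulk2 (38.8 and 36.8) and Rb1cc1 (33.6 and 33.3) had far fewer reads per kilobase than the Atg13 and Atg101 genes of the same complex. In the PI3K complex, Atg14 (41.8 in A20KO, 27.2 in WT) was the lowest subunit gene in both genotypes by the deposited length, and Pik3c3 (206 and 159) was the highest in A20KO.

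Genes that act around the core machinery were examined in the same fit. Of 73 such genes in 6 lists, all tested, 18 were higher and 26 were lower in A20KO. The share called in either direction was 39.8% of all genes and 58.2% of genes with a mean of at least 100. Both shares are also the background for the counts of each list below. These lists, like the members, were drawn up with earlier results of these data known.

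Among 20 genes of mTORC1 and AMPK control, which pass nutrient and energy state to the ULK complex, 8 were higher and 6 lower. Sesn1, a sestrin that restrains mTORC1, had 729, 703 and 736 normalized reads in A20KO and 189, 160.1 and 157 in WT (log2 fold change 2.10, SE 0.0928, limma adjusted p = 4.0e-29). Its relative Sesn2 was lower, with 247, 273 and 236 in A20KO and 619, 601.5 and 564 in WT (-1.24, limma adjusted p = 3.4e-19). Ddit4, the stress-induced mTORC1 inhibitor REDD1, was also lower, with 129, 123 and 99.8 in A20KO and 289, 294 and 332.5 in WT (-1.38, limma adjusted p = 7.1e-15). None of these 3 genes overlapped between genotypes.

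Akt1s1, which encodes the mTORC1 inhibitor PRAS40, rose by 0.56 on the log2 scale. Mtor itself had 1909, 2165 and 2199 normalized reads in A20KO and 2186, 2059 and 2211 in WT, an overlap of most of the range (log2 fold change -0.04, limma adjusted p = 0.53). AMPK is a trimer whose subunit genes were singled out after their values were seen: the catalytic gene Prkaa1 was higher (0.23) and Prkaa2 fell by 0.59, and the beta-subunit gene Prkab1 was higher (0.31) and Prkab2 fell by 0.43. The gamma-subunit gene Prkag1, with 43.7% of its exon length overlapped by a gene on the opposite strand, was higher (0.43), and Prkag2 did not pass (0.17). Of the 5 genes in these lists on chromosome 15 (Prkaa1, Prkag1, Deptor, Calcoco1 and Retreg1) 4 were higher and 0 were lower in A20KO, beside 53.6% of the genes of that chromosome higher, and Retreg1 did not pass.

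Of 8 genes of TFEB and FOXO control 2 were higher and 3 were lower. Mitf, per kilobase the most abundant of Mitf, Tfe3 and Tfeb (830, 123 and 44.4 in A20KO, against 975, 130 and 45.3 in WT), had 5126, 5079 and 5221 normalized reads in A20KO and 6057, 6037.5 and 6027 in WT (log2 fold change -0.23, SE 0.0348, limma adjusted p = 7.4e-08). Tfeb had 244, 242 and 269 in A20KO and 231, 298 and 241 in WT, and Tfe3 had 1138, 1222 and 1058 in A20KO and 1187, 1174 and 1250.1 in WT. Both overlapped between genotypes and did not pass (log2 fold changes -0.02 and -0.08, limma adjusted p = 0.90 and 0.28). Flcn, folliculin, which controls the nuclear entry of TFEB and TFE3, was higher by 0.51, and Foxo1 fell by 0.50, a call that ended without A20KO replicate 1 (adjusted p = 0.057). Foxo1 also lost its call without the variance trend (adjusted p = 0.062). Fnip1, the folliculin partner, was higher by 0.16, and 9 of 15 alternatives kept its call.

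Of 10 regulators of the class III PI3K and relatives of the WIPI genes 2 were higher and 2 were lower. Rubcnl, which encodes Pacer, a protein that works with UVRAG at autophagosome fusion in human cells, had 101.5, 107 and 109 normalized reads in A20KO and 17.5, 11.4 and 24.1 in WT (log2 fold change 2.57, SE 0.252, limma adjusted p = 1.6e-13). Bcl2, which binds Beclin 1 and holds it inactive, had 63.4, 83.1 and 84.0 in A20KO and 12.6, 19.1 and 11.5 in WT (2.36, limma adjusted p = 8.4e-11). Both were low in WT and above it in every A20KO library. Sh3glb1, which encodes the UVRAG-binding protein endophilin B1, fell by 0.41, and Mtmr14, a phosphatase of phosphatidylinositol 3-phosphate, fell by 0.50 (adjusted p = 0.060 in limma without the variance trend).

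Of 8 other genes of the isolation membrane 1 was higher and 5 were lower. The scramblase gene Vmp1, whose product works beside ATG9A and ATG2 at the growing membrane, had 1183, 1205 and 1099.9 normalized reads in A20KO and 1551, 1588 and 1490.3 in WT (log2 fold change -0.41, SE 0.0534, limma adjusted p = 2.0e-09). The related scramblase gene Tmem41b, named here after its value was seen, fell by 0.42, so Atg9a, Vmp1 and Tmem41b were each lower in A20KO. Atg9b, the paralogue of Atg9a in this list, was also named after its value was seen and leaned the other way. It had 496.6, 537.0 and 487.5 normalized reads in A20KO and 424.1, 407.0 and 500.3 in WT, which overlap. The Atg9b difference did not pass (log2 fold change 0.2, limma adjusted p = 0.052). Snx18, a sorting nexin, fell by 0.67, and Tbc1d5, a Rab GTPase-activating protein, was higher by 0.57.

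Of 15 other genes of cargo receptors and mitophagy 3 were higher and 8 were lower. Sqstm1, which encodes p62, the best-known receptor, had 5214, 5104 and 4969 normalized reads in A20KO and 7039, 7127 and 6987 in WT (log2 fold change -0.47, SE 0.0346, limma adjusted p = 1.7e-18). Of the Sqstm1 exon bases 17.28% overlap Mrnip on the opposite strand, whose level was not examined. Tax1bp1, a receptor that also binds A20, had 2867, 2981 and 2989.9 in A20KO and 3812, 3562 and 3618 in WT (-0.31, limma adjusted p = 1.6e-09). Neither gene's genotypes overlapped. Tbk1, the kinase that phosphorylates p62 and optineurin, had 1135, 1153 and 1191 in A20KO and 1620, 1475.5 and 1304 in WT (-0.33, limma adjusted p = 3.4e-06), a call that ended without the variance trend (adjusted p = 0.059).

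Wdfy3, which encodes the large adaptor ALFY, had the largest fall of the receptor list, with 2441, 2626 and 2719 normalized reads in A20KO and 5049.9, 4974 and 5168 in WT (log2 fold change -0.97, SE 0.0407, limma adjusted p = 3.2e-30). The ferritin receptor gene Ncoa4 was higher, with 842, 778 and 949 in A20KO and 582, 550.0 and 583 in WT (0.58, limma adjusted p = 2.4e-10). Calcoco1 was higher by 0.52, with an adjusted p of 0.051 in limma without the variance trend.

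Of 12 genes of fusion with lysosomes 2 were higher and 2 were lower. Plekhm1, an adaptor that joins RAB7 and the HOPS tethering complex to ATG8 proteins, had 3141.5, 3292 and 3157 normalized reads in A20KO and 2486, 2272 and 2397.5 in WT (log2 fold change 0.42, SE 0.0432, limma adjusted p = 6.7e-13). Vps33a and Vps39 of the HOPS complex changed by 0.16 and -0.19. Vps11, also of the HOPS complex, fell by 0.15, and 10 of 15 alternatives kept its call. The Vps33a call ended without WT replicate 2 (adjusted p = 0.071) and without the variance trend (0.14), and the Vps39 call without the variance trend (0.059).

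**Figure D4:**
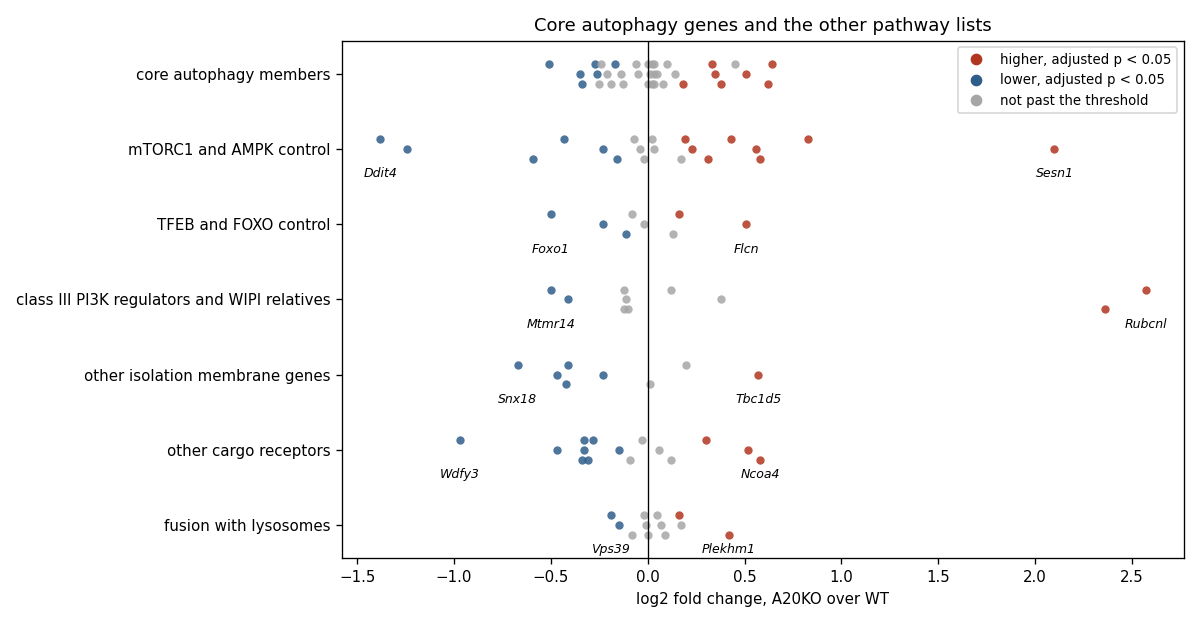
Points are log2 fold changes (A20KO over WT) of the 34 core genes in the top row and of the 73 surrounding genes by list, in red for higher, blue for lower and grey for genes that did not pass. The core genes lie between -0.51 and 0.64, while Rubcnl (2.57), Bcl2 (2.36) and Sesn1 (2.10) lie far to the right and Ddit4 (-1.38) and Sesn2 (-1.24) far to the left.

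In the authors' deposited table, 7 of the 34 members had an adjusted p-value under 0.05 and a positive log2 fold change. A further 5 members passed with a negative one. Of all 21047 genes listed there, 27.2% passed in either direction. That share also counts genes too low to be among the 17376 tested with limma. All 34 members were tested with limma, so the share of all listed genes is not a matched background for them. Setting that table beside the limma test, 33 members fell on the same side of the threshold, and the exception was Nbr1 with an adjusted p of 0.063 in the authors' deposited table.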

How the data were processed

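RNA from 3 A20KO and 3 WT samples of iBMDM was extracted with TRIZOL. Libraries were made with the SMARTer kit for mRNA, per the labels' protocols, and the submitters' processing notes name mm10. Not given in the sources used here are the aligner, the counter, whether strand was counted and how reads fitting several genes were treated. Where genes overlap on opposite strands, their reads therefore cannot be separated. The authors deposited 1 table with a normalized signal per gene and library (gene reads divided by a size factor), with their own log2 fold changes and p-values beside it. Dividing each library's values by the value of 1 read gave whole reads for 100% of values within 0.001 reads, 13308840 to 15130697 in all per library. Chi-square per degree of freedom between replicates was 2.671 to 3.597, so no library was a copy of another.

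Genes with a mean of at least 1 normalized read were tested with limma 3.58.1 (R 4.3.3, variance trend, robust) on log2(normalized read count + 1), a scale that understates the change of low genes, with Benjamini-Hochberg adjustment over all of them. The script was tested on simulated data. Gene pairs were compared by the log2 ratio of normalized reads within a library, with an exact two-sided permutation test. All were paralogues except the receptor pair Nbr1 and Optn. Alternatives were a pseudocount of 0.1, no filter, a mean of at least 5, no variance trend, quantile normalization, a replicate block, each library left out, and, on the recovered reads, DESeq2 1.42.0 and edgeR 4.0.16 with TMM or RLE. The edgeR test with TMM called 3315 genes higher and 3371 lower of 12656. From each surrounding list the text names at most 2 higher and 2 lower genes by smallest adjusted p. It always names Tnfaip3, Sqstm1, Tax1bp1, Tfeb, Tfe3, Mitf, Mtor and Tbk1. Other genes of these lists are named as chosen after their values were seen, or because they lie on chromosome 15. The members and all lists were chosen with earlier results of these data known. Shared sequence was measured in 31-base words of annotated transcripts.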

Additional observations from a re-analysis of the deposited data

How the results depend on the processing

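Over 15 alternatives, 5 to 8 members were higher and 4 to 8 lower in A20KO. Of the 13 called members 9 passed under every one of the 15. Ulk1, Ambra1, Atg2a and Nbr1 lost their calls under the settings named with their values. Of the 21 others 18 passed under none, and Uvrag (under 6), Atg4d (under 4) and Atg3 (under 2) passed under some. The fit without the variance trend gave the fewest calls (2440 genes higher and 2335 lower over all genes). The cause was not tested.

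The replicate numbers did not pair the libraries: the correlation of deviations from the group means over 11431 genes was -0.028, -0.016 and -0.047 for same-numbered libraries, and no library correlated best with its own number. With the replicate as a block, 3432 genes were higher and 3297 lower, and 7 members were higher and 6 lower.

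Small differences that had not passed changed sign when 1 library was left out, and the cause was not tested. Their log2 fold changes then ran from -0.05 to 0.12 for Atg12, -0.04 to 0.03 for Atg4b, -0.03 to 0.12 for Atg4c, -0.02 to 0.02 for Becn1, -0.05 to 0.09 for Gabarapl2, -0.06 to 0.12 for Map1lc3a and -0.05 to 0.05 for Map1lc3b. They ran from -0.07 to 0.13 for Rb1cc1, -0.0021 to 0.05 for Wipi2, -0.08 to 0.02 for Mtor and -0.09 to 0.09 for Tfeb. The log2 difference of the Map1lc3a to Map1lc3b ratio ran from -0.09 to 0.12 and that of Atg4c to Atg4b from -0.03 to 0.16. Quantile normalization gave 0.01 for Becn1 and -0.02 for Map1lc3a, and edgeR with RLE gave 0.00088 for Becn1. Wipi1, Atg10, Map1lc3a and Optn averaged under 100 normalized reads, so counting error weighs most on these 4 members.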

Other observations

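Genes whose deposited description names autophagy but which were in none of the lists were looked up after the data were seen. Dram1, a lysosomal membrane protein gene induced by p53, had 326, 315 and 277 normalized reads in A20KO and 535, 588 and 530.0 in WT (log2 fold change -0.85, SE 0.0866, limma adjusted p = 7.0e-13). Soga1, described as a suppressor of glucose by autophagy, had 140.0, 188 and 181 in A20KO and 358, 291 and 351 in WT (log2 fold change -0.98, SE 0.116, limma adjusted p = 1.1e-10). All A20KO libraries were below all WT libraries for both genes. The Dram1 relative Dram2 had 519, 490.0 and 510.0 in A20KO and 566, 563 and 508 in WT, which overlap (log2 fold change -0.11, limma adjusted p = 0.29). The pseudogene Atg4a-ps had 10 reads over the A20KO libraries and 17 over the WT libraries, too few to show a difference, and Depp1, with 2 reads in A20KO and 1 in WT, was not tested.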
